A study of Xenopus tropicalis with 12 samples.

Results

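Among the genes expressed in the hind limb of Xenopus tropicalis tadpoles, 68 were lowered strongly by thyroid hormone both in animals that lack thyroid hormone receptor α and in wild type animals. These 68 were chosen by their measured levels. For each gene levels in CPM (read counts divided by library size, with the sizes scaled by edgeR's trimmed mean of M values, TMM) were averaged within each group, 0.1 was added, and the log2 was taken. A gene was kept where its highest group mean reached 2 CPM and where the T3 change was -2 or less, a fall of 4-fold or more, in TRα (-/-) and in WT limbs. Of 19921 genes counted, 14320 had enough reads to be tested, 12269 of them reached 2 CPM in a group, and 68 met the rule.

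The 4 groups were TRα (-/-) limbs treated with 10 nM T3 for 18 hours, TRα (-/-) limbs without T3, WT limbs treated with the same dose for the same time, and WT limbs without T3, all taken at stages 52 to 54. Each group has 3 libraries, and the labels call these technical replicates of RNA merged from several tadpoles. Every p-value below therefore compares RNA pools by the spread of repeated libraries only, 2 pools in most contrasts and 4 in the interaction of genotype and T3. Variation between animals was not measured, and effects of genotype or T3 cannot be told apart from differences of parentage, exact stage or dissection between the pools. In whole limbs, fewer cells of a type and less RNA per cell cannot be told apart either.

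T3, the active thyroid hormone, acts through nuclear receptors, TRα and TRβ, which sit on DNA with the retinoid X receptor. Without hormone the receptors hold corepressors at their target genes, and hormone exchanges these for coactivators, so that direct targets of the best known kind are turned on. Genes that hormone turns down are less well understood, and many are lowered at some distance from the receptor, after other genes have responded. Limb buds of premetamorphic tadpoles express TRα at high levels, and TRα (-/-) animals still carry TRβ. The gene identifiers are Ensembl gene IDs and could not be paired with symbols here, so the members are given by ID and position on the JGI 4.2 assembly, their known functions are not stated, and neither the loss of the TRα transcript nor the markers of limb tissue could be checked in these libraries.

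Sequencing gave between 32649742 and 52430305 counts per library. TMM factors lay at 0.926 to 0.956 in TRα (-/-) limbs with T3, 0.854 to 0.876 in TRα (-/-) limbs without T3, 1.317 to 1.353 in WT limbs with T3 and 0.918 to 0.921 in WT limbs without T3. The high factors of WT limbs with T3 bear on each difference that involves this group. The values obtained without TMM are given under the dependence on processing. By total counts alone the rule chose 47 genes, all of them among the members, so the membership of the rest depended on the scaling. A count of 3 corresponded to 0.0435 to 0.0987 CPM, depending on the library. Intervals given for low counts cover counting error only. Of the libraries of a group, WT+T3 replicate 2 differed most from its fellows (chi-square per degree of freedom of 11.1 and 10.7), and results that turn on it are given without it as well.

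The 68 genes lost most of their expression in both genotypes, and they lost more of it in WT limbs. The level left with T3, as a share of the level without it, had a median of 17.55% in TRα (-/-) limbs, with a range of 0.487% to 24.5%, and a median of 7.05% in WT limbs, with a range of 0.116% to 22.1%. The share left was smaller in WT limbs for 54 of 68 genes. On the log2 scale of the rule the median change was -2.37 in TRα (-/-) limbs and -3.66 in WT limbs. Most members lay close to the limit in the mutant and far from it in wild type: the change was between -3 and -2 for 56 genes in TRα (-/-) limbs and for 18 in WT limbs, and it was -4 or less for 4 genes in TRα (-/-) limbs and for 28 in WT limbs. The limit in TRα (-/-) limbs was thus the one that decided membership for most genes.

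**Figure D1:**
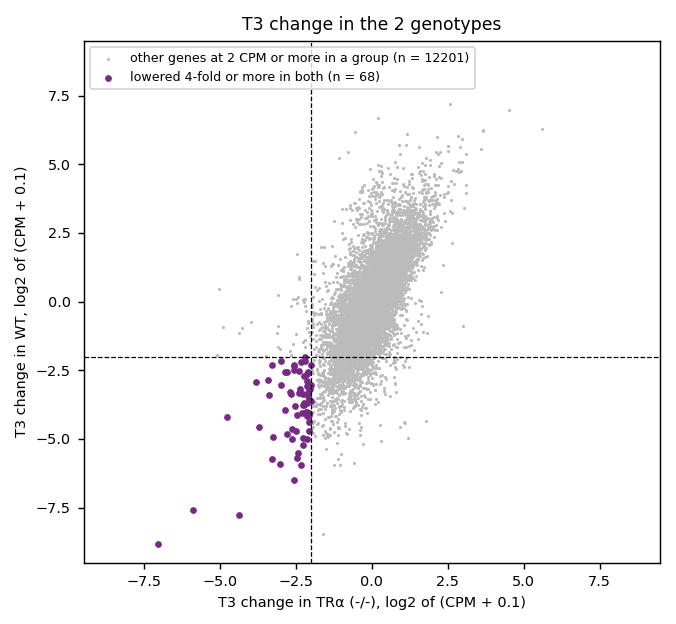
Change with T3 (log2 of group mean CPM plus 0.1) in TRα (-/-) and in WT limbs, 1 point per gene with at least 2 CPM in a group. The horizontal axis is TRα (-/-), the vertical axis is WT and dashed lines mark -2. The 68 members are the purple points at the lower left, and in TRα (-/-) limbs 56 of them lie between -3 and -2.

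Since the rule used both T3 contrasts, the T3 calls of the members are a description. edgeR called 68 of 68 lower with T3 in TRα (-/-) limbs, where 9.64% of all genes tested were lower, and 68 of 68 lower in WT limbs, where 25.1% were. The 3 libraries with T3 lay below the 3 without it for each of the 68 genes in both genotypes, as they did for 38% of all genes tested in TRα (-/-) limbs and for 46.1% in WT limbs. Just inside the limit stood ENSXETG00000033930, ENSXETG00000006402 and ENSXETG00000029155, with changes of -2.001, -2.012 and -2.014 in TRα (-/-) limbs. Just outside stood ENSXETG00000030525, with -3.50 in TRα (-/-) and -1.99 in WT limbs, ENSXETG00000024232, with -1.99 in TRα (-/-) and -4.77 in WT limbs, and ENSXETG00000000531, with -1.98 in TRα (-/-) and -2.48 in WT limbs. The values on either side of the limit nearly touched, so the list has no natural edge there.

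The members spanned a wide range of levels. Mean levels ran from 0.088 to 50.3 CPM in TRα (-/-) limbs with T3 (median 1.35), from 1.15 to 397.6 CPM in TRα (-/-) limbs without T3 (median 9.13), from 0.005 to 22.5 CPM in WT limbs with T3 (median 0.856), and from 0.505 to 291.2 CPM in WT limbs without T3 (median 16.3). With T3, 31 of the 68 genes were under 1 CPM in both genotypes. Summed over the 3 libraries with T3, 6 members had 10 counts or fewer in WT limbs and 1 in TRα (-/-) limbs. These lowest levels are known only roughly. The median coefficient of variation over the 3 libraries of a group was 13.7% in TRα (-/-) limbs with T3, 5.55% in TRα (-/-) limbs without T3, 10.4% in WT limbs with T3 and 4.51% in WT limbs without T3. Summed over the members, the level was 456.4 ± 6.84 CPM in TRα (-/-) limbs with T3, against 3025 ± 30.6 CPM in TRα (-/-) limbs without T3, and 214.7 ± 3.19 CPM in WT limbs with T3, against 3296 ± 21.7 CPM in WT limbs without T3 (SD, n = 3 libraries each).

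**Figure D2:**
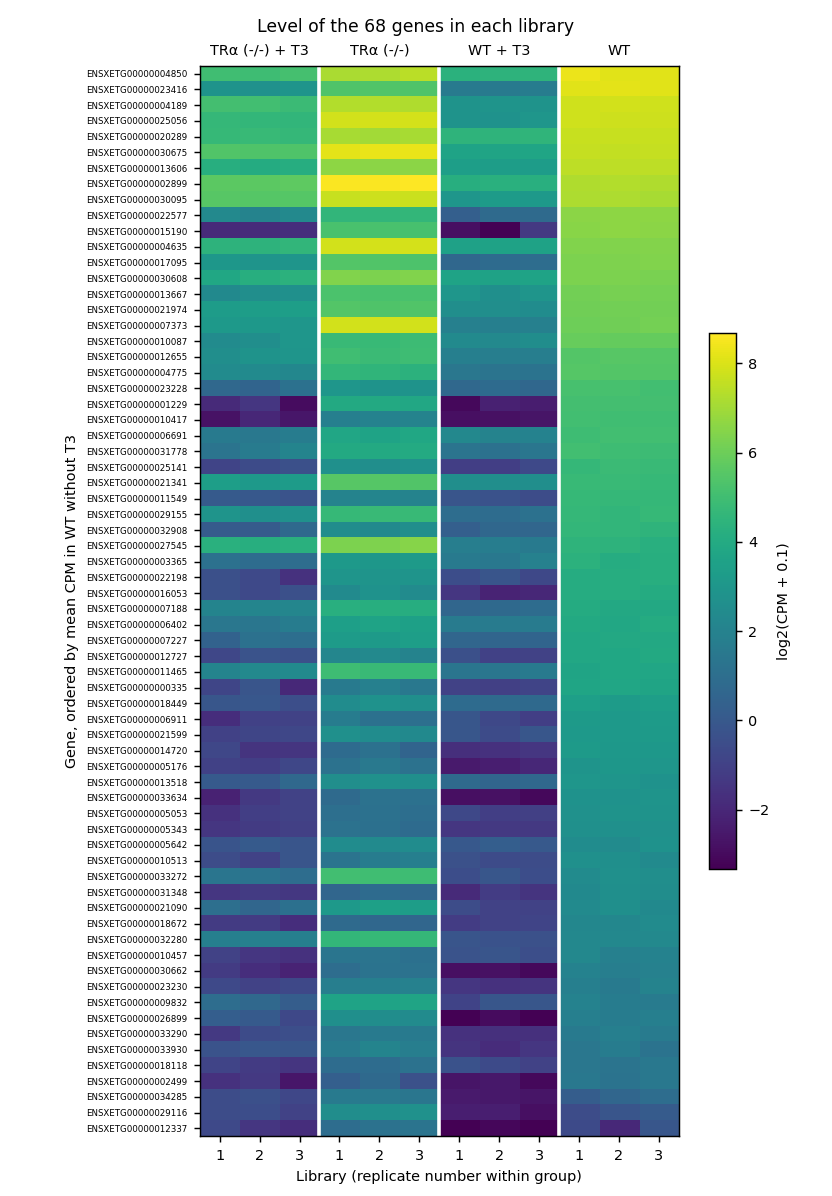
Levels of the 68 members (rows) in the 12 libraries (columns), as log2(CPM + 0.1) on a colour scale from dark (low) to yellow (high), with genes ordered by their mean in WT limbs without T3. All 68 rows are darker in the T3 columns than in the untreated columns of the same genotype.

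Of the 6 members with the most negative mean change, 4 were under 1 CPM with T3 in every library of both genotypes. ENSXETG00000015190 (GL172884.1:1301465-1311736, minus strand, 25 exon blocks) had 0.173, 0.174 and 0.192 CPM in TRα (-/-) limbs with T3 and 36.9, 37.4 and 36.3 CPM without, against 0.0416, 0 and 0.292 CPM in WT limbs with T3 and 94.4, 98.0 and 95.2 CPM without. The treated libraries of the genotypes overlapped, while the untreated ones did not. The WT value with T3 rested mostly on 1 library: its change of -9.85 became -12.20 without WT+T3 replicate 3, and -9.10 without WT+T3 replicate 2. ENSXETG00000001229 (GL172934.1:1008236-1027432, plus strand) had 0.173, 0.274 and 0.032 CPM in TRα (-/-) limbs with T3 and 15.6, 15.4 and 14.8 CPM without, against 0.0208, 0.116 and 0.0973 CPM in WT limbs with T3 and 33.8, 33.5 and 34.4 CPM without. Here too the treated libraries overlapped. Without TRα (-/-)+T3 replicate 2 the change of ENSXETG00000001229 in TRα (-/-) limbs was -7.05 in place of -6.46.

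ENSXETG00000010417 (GL172861.1:1120681-1139055, minus strand) had 0.0494, 0.149 and 0.0641 CPM in TRα (-/-) limbs with T3 and 3.55, 3.83 and 4.01 CPM without, against 0.0416, 0.0435 and 0.0583 CPM in WT limbs with T3 and 32.9, 31.7 and 32.2 CPM without. Its treated libraries were at or near the level of 3 counts in both genotypes, and the counts of the 3 TRα (-/-) libraries with T3 were 2, 6 and 2. ENSXETG00000025141 (GL172721.1:1587890-1603815, minus strand) had 0.445, 0.572 and 0.673 CPM in TRα (-/-) limbs with T3 and 6.38, 5.99 and 6.69 CPM without, against 0.374, 0.362 and 0.525 CPM in WT limbs with T3 and 25.5, 28.4 and 28.2 CPM without. These 4 genes share a pattern: with T3 they were low in both genotypes, and without T3 they were lower in TRα (-/-) limbs.

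The other pair of the 6 most lowered members stood at higher CPM with T3. ENSXETG00000023416 (GL172939.1:1236592-1250630, minus strand) had 7.07, 6.57 and 7.21 CPM in TRα (-/-) limbs with T3 and 40.8, 43.1 and 41.0 CPM without, against 2.98, 2.94 and 3.17 CPM in WT limbs with T3 and 282.2, 287.2 and 281.3 CPM without. The untreated WT level stood far above the others, and 16.7% of the level was left in TRα (-/-) limbs, against 1.07% in WT limbs. ENSXETG00000007373 (GL173188.1:308883-315041, minus strand) ran the other way without T3: it had 8.60, 8.41 and 7.75 CPM in TRα (-/-) limbs with T3 and 228.1, 227.9 and 229.0 CPM without, against 3.68, 3.48 and 3.66 CPM in WT limbs with T3 and 64.5, 67.6 and 71.0 CPM without. It was higher in TRα (-/-) limbs in both conditions, although by total counts without TMM the log2 difference with T3 was 0.70 in place of 1.20, under 2-fold, and the share left was 3.62% in TRα (-/-) limbs and 5.33% in WT limbs.

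**Figure D3:**
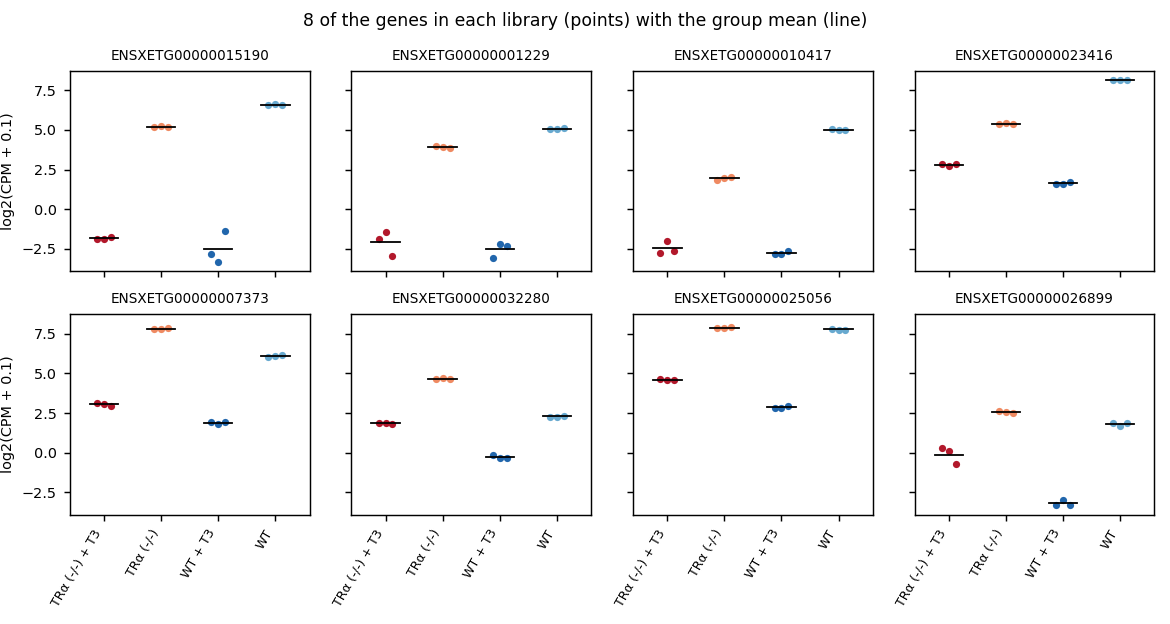
Levels of 8 members in each of the 12 libraries, as log2(CPM + 0.1), with a line at the mean of the 3 libraries of a group; TRα (-/-) groups stand left of WT groups and T3 left of no T3. The treated libraries of ENSXETG00000015190, ENSXETG00000001229 and ENSXETG00000010417 lie at the bottom in both genotypes, while those of ENSXETG00000026899 lie at the bottom in WT limbs only.

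Levels of different genes can be compared per kilobase of exon, and on that scale 6 members stood highest without T3, averaged over both genotypes. The highest was ENSXETG00000029155 (GL172758.1:2025091-2025157, plus strand), with 7.22, 6.22 and 6.57 CPM in TRα (-/-) limbs with T3 and 26.4, 28.0 and 27.3 CPM without, against 1.87, 1.77 and 2.16 CPM in WT limbs with T3 and 25.4, 23.8 and 26.0 CPM without. Its only exon block, of 67 bp, is shorter than a sequenced read, so its level per kilobase is uncertain, and it lies 521 bp from ENSXETG00000028981, which was also lowered. The next was ENSXETG00000030675 (GL172906.1:82895-85727, minus strand). It had 42.1, 41.6 and 41.1 CPM in TRα (-/-) limbs with T3 and 293.7, 311.0 and 305.0 CPM without, against 12.2, 12.8 and 13.3 CPM in WT limbs with T3 and 199.0, 192.3 and 197.2 CPM without. ENSXETG00000004850 (GL172719.1:204865-205713, minus strand, 1 exon block) had 32.2, 30.9 and 35.3 CPM in TRα (-/-) limbs with T3 and 144.2, 146.0 and 171.8 CPM without, against 20.1, 21.9 and 22.2 CPM in WT limbs with T3 and 315.5, 279.1 and 279.1 CPM without. ENSXETG00000030675 and ENSXETG00000004850, both abundant, were lowered to levels that remained well measured in both genotypes. For all 3 genes the TRα (-/-) libraries with T3 lay above the WT libraries with T3.

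ENSXETG00000025056 (GL173076.1:60510-68103, plus strand) was nearly level between the genotypes without T3, at 235.0, 235.5 and 238.9 CPM in TRα (-/-) limbs and 227.0, 217.7 and 218.1 CPM in WT limbs. With T3 it had 25.4, 24.3 and 23.6 CPM in TRα (-/-) limbs and 7.12, 6.88 and 7.70 CPM in WT limbs, which leaves 10.3% in TRα (-/-) and 3.27% in WT limbs. ENSXETG00000004189 (GL172648.1:5509614-5513613, plus strand) had 34.0, 32.7 and 29.1 CPM in TRα (-/-) limbs with T3 and 158.7, 157.0 and 151.1 CPM without, against 6.99, 7.39 and 7.18 CPM in WT limbs with T3 and 225.2, 232.0 and 225.1 CPM without. It shares 76 exon bases with ENSXETG00000004179 on the other strand, and reads over these bases cannot be assigned with certainty, since the sources used here do not state whether counting used strand. ENSXETG00000030095 (GL174906.1:11010-19418, minus strand) had 46.3, 45.5 and 45.6 CPM in TRα (-/-) limbs with T3 and 200.3, 214.0 and 207.1 CPM without, against 7.76, 9.45 and 8.93 CPM in WT limbs with T3 and 148.6, 146.2 and 138.0 CPM without. The share left in TRα (-/-) limbs was above that in WT limbs for all 6 of the members highest per kilobase.

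The genotypes were next compared without hormone, by TRα (-/-) against WT limbs without T3. The rule set no direct limit on this contrast, but it used the same untreated group means, so the counts are a description of the members. Its floor of 2 CPM applied only to the highest group mean. Without T3, 3 members were under 2 CPM in WT limbs, among them ENSXETG00000029116 and ENSXETG00000012337. In TRα (-/-) limbs 6 were, among them ENSXETG00000014720. These members passed the floor only through the other genotype, which bears on their difference. More members were lower in TRα (-/-) limbs than higher. By edgeR at an adjusted p under 0.05 and 2-fold or more, 26 of 68 members (38.2%) were lower, where 7.35% of all genes tested were, and 10 of 68 (14.7%) were higher, where 13.0% of all genes were. The share of members higher in the mutant was thus near that of all genes. The share lower was above that of all genes, but it was not particular to the members. Of 921 genes lowered 4-fold or more by T3 in WT but not in TRα (-/-) limbs, 38.7% were lower and 0.651% were higher. The median log2 difference over the members was -0.76, against 0.015 over all genes tested, and it was below 0 for 46 of 68 members.

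Among the 26 genes lower in TRα (-/-) limbs, the largest differences were those of ENSXETG00000010417, ENSXETG00000023416, ENSXETG00000011549 and ENSXETG00000014720. The log2 difference was -3.08 ± 0.08 (SE) for ENSXETG00000010417 (edgeR adjusted p = 1.14e-21) and -2.77 ± 0.04 for ENSXETG00000023416 (edgeR adjusted p = 1.06e-26). ENSXETG00000011549 (GL172989.1:1018375-1028149, plus strand) had 3.98, 4.34 and 4.01 CPM in TRα (-/-) limbs and 25.9, 25.1 and 25.6 CPM in WT limbs, a log2 difference of -2.63 ± 0.08 (edgeR adjusted p = 1.67e-20). ENSXETG00000014720 (GL173226.1:17574-19127, plus strand, 1 exon block) had 1.74, 2.12 and 1.37 CPM in TRα (-/-) limbs and 9.09, 8.44 and 8.35 CPM in WT limbs, a log2 difference of -2.31 ± 0.13 (edgeR adjusted p = 1.08e-14). These 4 genes were chosen by the size of this difference, so it is a description that their 3 mutant libraries lay below all 3 WT libraries.

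The 4 largest differences among the 10 genes higher in TRα (-/-) limbs were of similar size. These genes too were chosen by that size, so their values are a description. ENSXETG00000029116 (GL173333.1:483445-483512, minus strand) had 5.79, 6.14 and 6.69 CPM in TRα (-/-) limbs and 0.602, 0.796 and 0.996 CPM in WT limbs, a log2 difference of 2.93 ± 0.16 (edgeR adjusted p = 4.66e-15). Its annotated exon of 68 bp is shorter than a read, and it lies 60 bp from ENSXETG00000029125, which T3 also lowered. ENSXETG00000033272 (GL173479.1:167536-173707, minus strand) had 33.3, 31.8 and 30.5 CPM in TRα (-/-) limbs and 5.45, 6.43 and 5.90 CPM in WT limbs, a log2 difference of 2.43 ± 0.08 (edgeR adjusted p = 3.15e-19). ENSXETG00000032280 (GL172810.1:1473413-1485083, minus strand) had 24.6, 26.1 and 25.4 CPM in TRα (-/-) limbs and 4.72, 4.68 and 4.96 CPM in WT limbs, a log2 difference of 2.40 ± 0.07 (edgeR adjusted p = 2.23e-20). Both were several-fold more abundant in the mutant in every library. ENSXETG00000012337 (GL172742.1:1479152-1485259, plus strand) was scarce, with 1.88, 2.19 and 2.39 CPM in TRα (-/-) limbs and 0.538, 0.159 and 0.817 CPM in WT limbs, and its difference of 2.03 ± 0.29 (edgeR adjusted p = 5.26e-07) was 2.62 without WT replicate 3. The most abundant member in TRα (-/-) limbs, ENSXETG00000002899, named here after its values were seen, also belongs to the 10, with a mean of 397.6 CPM in TRα (-/-) and 154.8 CPM in WT limbs.

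With T3 more members were higher in TRα (-/-) limbs than lower. Of the 68 members, 28 (41.2%) were higher in TRα (-/-) than in WT limbs with T3, where 11.4% of all genes tested were, and 2 (2.94%) were lower, where 3.77% of all genes were (edgeR, same thresholds). The median log2 difference was 0.83, against -0.008 over all genes tested, and it was above 0 for 52 of 68 members. The contrasts with and without T3 have no library in common, but both share libraries with the rule. The turn from one to the other equals the difference of the 2 T3 changes that chose the members, so it is a description. Of the 921 genes lowered 4-fold or more in WT but not in TRα (-/-) limbs, 54.4% were higher in TRα (-/-) limbs with T3.

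The largest differences with T3 belonged to genes that were almost undetected in treated WT limbs. ENSXETG00000026899 (GL173200.1:189707-202839, plus strand) had 1.11, 0.970 and 0.513 CPM in TRα (-/-) limbs with T3 and 0, 0.029 and 0 CPM in WT limbs with T3, where the counts were 0, 2 and 0. By summed counts it was 75.3-fold higher in TRα (-/-) limbs, with a 95% interval of 20.3 to 630.6 for counting error. The edgeR log2 difference was 5.90 (adjusted p = 9.67e-11). Without WT+T3 replicate 2, which held the only counts of treated WT limbs, edgeR gave 8.06. That value rests on no WT count with T3, so it gives no size. ENSXETG00000012337 had 0.519, 0.274 and 0.192 CPM in TRα (-/-) limbs with T3 and 1 count over all 3 WT libraries with T3. That made it 57.3-fold higher with a 95% interval of 9.67 to 2320 (edgeR log2 difference 5.24, adjusted p = 8.59e-06). Without WT+T3 replicate 2, which held that count, edgeR gave 6.68, again with no WT count with T3 left. ENSXETG00000034285 (GL172699.1:753694-766113, minus strand) had 0.593, 0.672 and 0.481 CPM in TRα (-/-) limbs with T3 and 0.0832, 0.0724 and 0.0583 CPM in WT limbs with T3. The log2 difference was 3.00 (edgeR adjusted p = 9.93e-08). All 3 are low genes, and their fold sizes are known only within wide bounds. Their SE is left out, since at so few counts it can understate counting error.

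The 2 members lower in TRα (-/-) limbs with T3 had smaller differences. ENSXETG00000010457 (GL172721.1:1513662-1534523, plus strand) had 0.420, 0.274 and 0.224 CPM in TRα (-/-) limbs with T3 and 0.749, 0.782 and 0.642 CPM in WT limbs with T3, a log2 difference of -1.21 ± 0.26 (edgeR adjusted p = 0.000198). ENSXETG00000018449 (GL172659.1:4176434-4299229, minus strand) had 0.816, 0.846 and 0.641 CPM in TRα (-/-) limbs with T3 and 1.75, 1.68 and 1.63 CPM in WT limbs with T3, a log2 difference of -1.11 ± 0.16 (edgeR adjusted p = 1.10e-06). Both had the same sign without T3, at -0.84 and -0.74, below the 2-fold threshold.

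**Figure D4:**
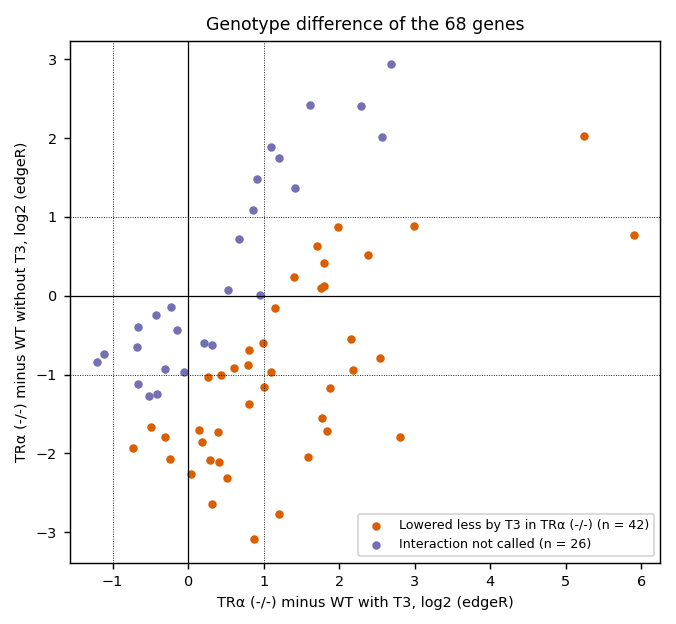
Log2 difference of TRα (-/-) minus WT limbs with T3 (horizontal axis) and without T3 (vertical axis), 1 point per member, with dotted lines at 2-fold; orange marks the 42 members lowered less by T3 in TRα (-/-) limbs and purple the 26 with no called interaction. Of the 26 members called lower in TRα (-/-) without T3, 0 were called lower with T3, and 8 of the 10 members higher without T3 were also higher with T3. Over all genes tested 3.77% were called lower and 11.4% higher with T3.

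Read together, the genotype calls divided the members into classes. The same classes were not counted over all genes tested, where 3.77% were called lower and 11.4% higher with T3. The counts by class are thus a description of the members. The 26 genes lower in TRα (-/-) limbs without T3 had a median level of 0.473 CPM in TRα (-/-) limbs with T3 and 5.04 CPM without, and of 0.419 CPM in WT limbs with T3 and 18.1 CPM without. With T3, 20 of the 26 were not called between the genotypes, 6 were higher in TRα (-/-) limbs and 0 were lower (edgeR, with 3 below WT at an unadjusted p under 0.05). Of those below WT, ENSXETG00000006691 (log2 difference -0.52, edgeR adjusted p = 6.35e-05) and ENSXETG00000003365 (-0.66, edgeR adjusted p = 0.000121) passed the adjusted p and missed only the 2-fold threshold. Missing the threshold does not show that the levels were the same, and many of the 26 genes were at low levels with T3. The median share left in this class was 16.9% in TRα (-/-) limbs and 3.24% in WT limbs. ENSXETG00000011549 is an example at measurable levels: with T3 it had 0.939, 0.896 and 0.737 CPM in TRα (-/-) limbs and 0.791, 0.710 and 0.584 CPM in WT limbs, a log2 difference of 0.32 ± 0.17 (edgeR adjusted p = 0.132), although without T3 it was at a much lower level in TRα (-/-) limbs.

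The 10 genes higher in TRα (-/-) limbs without T3 were mostly higher with T3 as well. Their median level was 4.16 CPM in TRα (-/-) limbs with T3 and 30.2 CPM without, and 1.67 CPM in WT limbs with T3 and 9.65 CPM without. With T3, 8 of the 10 were again higher in TRα (-/-) limbs, and the median share left was 12.2% in TRα (-/-) and 12.9% in WT limbs. ENSXETG00000032280 had 3.56, 3.63 and 3.49 CPM in TRα (-/-) limbs with T3 and 0.791, 0.710 and 0.681 CPM in WT limbs with T3, a log2 difference of 2.29 ± 0.12 (edgeR adjusted p = 3.47e-15), close to its 2.40 without T3. ENSXETG00000002899 had log2 differences of 1.42 ± 0.04 with T3 (edgeR adjusted p = 1.55e-20) and 1.36 ± 0.04 without (edgeR adjusted p = 2.77e-21).

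The remaining 32 genes were not called between the genotypes without T3. With T3, 14 of them were higher in TRα (-/-) limbs, 2 were lower and 16 were not called. Their median level was 3.56 CPM in TRα (-/-) limbs with T3 and 15.0 CPM without, and 1.69 CPM in WT limbs with T3 and 15.6 CPM without. The median of the shares left, taken gene by gene, was 18.5% in TRα (-/-) and 8.38% in WT limbs. ENSXETG00000025056 and ENSXETG00000030095 belong here, with log2 differences with T3 of 1.76 ± 0.05 (edgeR adjusted p = 1.56e-20) and 2.39 ± 0.06 (edgeR adjusted p = 1.51e-22).

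The interaction, or the log2 T3 change of TRα (-/-) limbs less that of WT limbs, gives how far the size of the fall differed. It is made of the same 2 changes that chose the members, so its values and calls are a description here. Every member passed the same limit in both genotypes. Even so, 42 of 68 (61.8%) were lowered less in TRα (-/-) than in WT limbs, with an estimate of 2-fold or more. Over all genes tested the interaction was positive and called for 17.7%. Of the members, 0 were lowered more, where it was negative and called for 16.6% of all genes (edgeR, adjusted p under 0.05). Without the 2-fold threshold, 4 members had a negative interaction past the adjusted p, the same number as at an unadjusted p under 0.05, and DESeq2 also called 0 at 2-fold. The median interaction over the members was 1.41, against 0.01 over all genes tested. The interaction was called for 23 of the 26 genes lower in TRα (-/-) limbs without T3, for 18 of the 32 genes not called and for 1 of the 10 higher. The interaction equals the genotype difference with T3 minus that without it, so classes set by the difference without T3 lean this way, in the interaction and in the share left, by construction. The rule bears on these counts, since it admitted changes only at -2 or below, where most members stood near the limit in TRα (-/-) limbs.

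The 3 largest interactions came from different levels. That of ENSXETG00000026899 was 5.13, with 14.8% of its level left in TRα (-/-) and 0.283% in WT limbs. Without WT+T3 replicate 2 edgeR gave 7.29, which rests on no WT count with T3 and gives no size. ENSXETG00000033634 (GL173957.1:66120-70155, minus strand) had 0.124, 0.299 and 0.416 CPM in TRα (-/-) limbs with T3 and 1.68, 2.22 and 2.14 CPM without, against 0.0416, 0.0435 and 0.0194 CPM in WT limbs with T3 and 6.81, 6.81 and 7.23 CPM without. Its interaction was 4.6. For these 2 genes no SE is given, since WT limbs with T3 had too few counts for it. ENSXETG00000023416, by contrast, was well above the detection limit in all 12 libraries, with an interaction of 3.96 ± 0.08. For this gene TRα (-/-) limbs were lower without T3 and higher with T3 (log2 difference 1.20 with T3, and 0.69, under 2-fold, by total counts), so that its levels with and without T3 lay closer together than in WT limbs. ENSXETG00000007373 had an interaction of -0.55 ± 0.08, under 2-fold, so that a gene abundant without T3 fell about as far in TRα (-/-) limbs as in WT limbs, and slightly further.

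**Figure D5:**
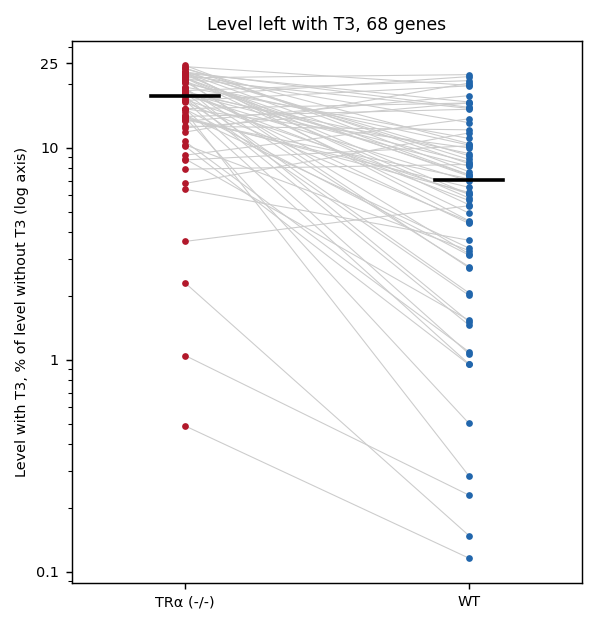
Level with T3 as a percent of the level without T3 (log axis) in TRα (-/-) and in WT limbs, with 1 point per member, grey lines joining the values of a gene and black bars at the medians of 17.55% in TRα (-/-) and 7.05% in WT limbs. Lines run down towards WT for 54 of 68 members.

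Other sets of genes stand beside the members as a background. Among 921 genes that were lowered 4-fold or more in WT but not in TRα (-/-) limbs, 356 (38.7%) were lower in TRα (-/-) limbs without T3, a share close to the 38.2% of the members, and 6 (0.651%) were higher, against 14.7% of the members. With T3, 501 (54.4%) of the 921 were higher in TRα (-/-) limbs, against 41.2% of the members. In TRα (-/-) limbs 392 (42.6%) of the 921 were still called lower with T3, at 2-fold or more. By the 4-fold limits of the rule 39 genes were lowered in TRα (-/-) but not in WT limbs, and 76 were raised 4-fold or more in both. Of these 76, 39 (51.3%) were higher in TRα (-/-) limbs without T3, 18 (23.7%) were lower with T3, and the interaction was negative and called for 59 (77.6%). The comparisons share their libraries, and no test was made of one set against another.

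The length of the members was near that of the other genes. Summed exon length had a median of 1773 bp, against 1761 bp over all genes tested, and the median number of exon blocks was 9 in both. A single exon block was annotated for 5 members (7.35%), against 4.39% of all genes tested, and 2 members (2.94%), against 0.482%, were under 100 bp long. The span of 7 members (10.3%) overlapped that of another gene, against 5.03% of all genes tested, and 3 members shared exon bases with a neighbour: ENSXETG00000004189, ENSXETG00000018672 with 140 bp and ENSXETG00000005176 with 552 bp. Counts of these 3 genes could include reads of the overlapping gene.

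The members were scattered over 65 scaffolds. Only 3 scaffolds held 2 members each, and only ENSXETG00000023228 (GL173405.1:226286-243137, minus strand) and ENSXETG00000023230 (GL173405.1:271658-276051, minus strand) were direct neighbours, 28520 bp apart. They had different levels and different genotype patterns. ENSXETG00000023228 had 1.56, 1.34 and 2.12 CPM in TRα (-/-) limbs with T3 and 7.70, 7.16 and 7.18 CPM without, against 1.58, 1.71 and 1.5 CPM in WT limbs with T3 and 36.0, 36.5 and 33.3 CPM without. ENSXETG00000023230 had 0.519, 0.423 and 0.513 CPM in TRα (-/-) limbs with T3 and 3.45, 3.55 and 3.73 CPM without, against 0.271, 0.232 and 0.253 CPM in WT limbs with T3 and 3.55, 2.99 and 4.04 CPM without. Without T3 the first was lower in TRα (-/-) limbs (log2 difference -2.26 ± 0.08, edgeR adjusted p = 4.97e-19), and the second showed a difference of 0.01 ± 0.12 (edgeR adjusted p = 0.949). These genes were not tested against each other.

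Of 125 genes next to a member that were not members themselves, 98 were tested, and 10 (10.2%) were called lower with T3 in both genotypes, against 6.82% of all genes tested. In TRα (-/-) limbs 16 (16.3%) of these neighbours were lower with T3, against 9.64% of all genes tested, and 4 (4.08%) were higher, against 7.14%. In WT limbs 32 (32.7%) were lower, against 25.1% of all genes, and 21 (21.4%) were higher, against 22.8%. Among the 10 was ENSXETG00000010456, 4337 bp from ENSXETG00000010457, with edgeR log2 T3 changes of -5.45 in TRα (-/-) and -5.73 in WT limbs, and ENSXETG00000029125, with -4.43 in TRα (-/-) and -4.23 in WT limbs. Both stayed under 2 CPM in all groups, which kept them out of the 68, and both were picked here after their values were seen.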

How the data were processed

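Poly-A RNA of hind limbs was sequenced as paired-end TruSeq libraries, 3 technical libraries from 1 RNA pool per group. The authors mapped reads to the JGI X. tropicalis assembly with STAR and counted them over exons with featureCounts (versions 2.5.3a and 1.4.6-p3 in the submitters' processing notes), and deposited the unnormalized count of each gene in each library. The published methods name other versions of both tools. Strand and multi-mapped reads are not given in the sources used here. Genes kept by filterByExpr (14320 of 19921, of which 2363 had no counts) were scaled by TMM and fitted with edgeR 4.0.16 (glmQLFit, glmQLFTest) in R 4.3.3 over all 12 libraries with 1 mean per group, and p-values were adjusted by Benjamini-Hochberg over all genes tested. The common biological coefficient of variation was 0.0421. Calls needed an adjusted p under 0.05 and 2-fold. The SE is the log2 difference divided by the square root of the quasi-likelihood F. At few counts this SE can be smaller than counting error. No 2 libraries of a group agreed within sampling noise (chi-square per degree of freedom 1.89 to 11.1). The code was tested on simulated data.

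Named genes were the 6 members highest per kilobase without T3, the 6 with the most negative mean T3 change, the 4 called highest and 4 called lowest between genotypes without T3, up to 3 of each with T3 and for the interaction, 3 genes on each side of the limit, and members next to each other. The members, lists and tests were chosen with earlier results of these data known. Under the alternatives listed below, the values compared for 27 named members cover 5 contrasts. These include both T3 changes, which the rule had used to choose the members. None of the 19921 IDs matched the 28858 entries of the name table, so symbol lists, markers and sequences were not used here. The alternatives tried were DESeq2 1.42.0, its size factors, total counts, other filters and pseudocounts, other thresholds, fits of the compared groups, the replicate block, summed libraries with an assumed spread, and leaving out each library.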

Additional observations from a re-analysis of the deposited data

Results flagged for a closer look

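The T3 change differed between the genotypes for 42 of the 68 members, by edgeR's interaction test (adjusted p under 0.05, 2-fold or more), and in each of them T3 lowered the gene less in TRα (-/-) than in WT limbs. Over all genes tested the interaction was called positive for 17.7% and negative for 16.6%. It was called positive for 94.8% of the 921 genes lowered 4-fold or more in WT but not in TRα (-/-) limbs. Those genes were chosen by a larger fall in WT limbs, which sets the sign by construction. The members were chosen by the same 2 changes, and 56 of 68 stood between -3 and -2 in TRα (-/-) limbs, next to the limit, so the sign and the count depend on that choice and are a description. Of the named members, 19 had such a difference, given here as the log2 T3 change in TRα (-/-) limbs minus that in WT limbs. It was above 3 for ENSXETG00000026899 (5.13), ENSXETG00000033634 (4.6), ENSXETG00000023416 (3.96), ENSXETG00000010417 (3.95) and ENSXETG00000012337 (3.21). Of these, ENSXETG00000023416 was measured at the highest levels, while the others had few counts in WT limbs with T3. The difference was between 2 and 3 for ENSXETG00000011549 (2.95), ENSXETG00000014720 (2.82), ENSXETG00000004189 (2.70), ENSXETG00000025141 (2.52), ENSXETG00000023228 (2.29), ENSXETG00000015190 (2.18), ENSXETG00000001229 (2.16) and ENSXETG00000034285 (2.11). It was between 1 and 2 for ENSXETG00000030095 (1.86), ENSXETG00000029155 (1.68), ENSXETG00000025056 (1.66), ENSXETG00000004850 (1.53), ENSXETG00000033930 (1.38) and ENSXETG00000030675 (1.08). The calls of ENSXETG00000033930 and ENSXETG00000030675 were lost by total counts (0.97 and 0.66).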

How the results depend on the processing

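No test here holds the spread between animals. With the libraries of a group summed and a biological coefficient of variation of 0.4 assumed between pools, edgeR called 7 members lower with T3 in TRα (-/-) limbs and 64 in WT limbs, 0 higher and 0 lower in TRα (-/-) without T3, 2 higher and 0 lower with T3, and 1 lowered less in TRα (-/-) limbs. Scaling by total counts alone, without TMM, moved the median log2 difference with T3 to 0.33 over the members and to -0.51 over all genes, and gave 7 members lower with T3 and 2 lowered more in TRα (-/-) limbs, with 21 higher with T3 and 34 lowered less. On that scale the medians were -0.86 over the members and -0.08 over all genes without T3, and 0.998 and -0.41 for the interaction. Leaving out genes with under 10 counts in any library kept 47 members in the test and gave 11 lower without T3, 1 lower with T3 and 25 lowered less. With no fold threshold the counts were 19 higher and 44 lower without T3, 8 lower with T3 and 4 lowered more. A test against 2-fold gave 9 higher and 21 lower without T3, 24 higher and 0 lower with T3, and 33 lowered less. The rule chose 26 genes with a pseudocount of 1 CPM, 45 with a highest mean of 10 CPM and 47 by total counts.

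Fits that left out 1 library at a time gave 68 to 68 members lower with T3 in both genotypes, 10 to 11 higher and 25 to 27 lower in TRα (-/-) without T3, 28 to 29 higher and 2 to 2 lower with T3, 41 to 44 lowered less and 0 to 0 lowered more, and the rule chose 65 to 71 genes. Of 2887 values of named genes, 2771 kept direction and call, 26 gained the call and 11 changed sign. Of 79 calls lost, 69 fell under the assumed spread between pools. The genotype difference of ENSXETG00000023228 with T3 was -0.010 with DESeq2, -0.009 with its size factors and -0.474 by total counts, and it ran from -0.142 (without TRα (-/-)+T3 replicate 3) to 0.17 when 1 library was left out, with -0.014 without WT+T3 replicate 3. That of ENSXETG00000023230 without T3 was -0.079 by total counts, and it ran from -0.091 (without WT replicate 2) to 0.129 when 1 library was left out, with -0.021 without TRα (-/-) replicate 3. By total counts, the difference with T3 was -0.19 for ENSXETG00000011549 and -0.09 for ENSXETG00000025141, and the interaction of ENSXETG00000006402 was -0.13. Calls lost by total counts were the difference with T3 of ENSXETG00000007373 (0.70) and ENSXETG00000023416 (0.69) and the interaction of ENSXETG00000030675 (0.66) and ENSXETG00000033930 (0.97), and the interaction of ENSXETG00000033272 (-1.22) and the difference without T3 of ENSXETG00000004850 (-1.01) became called. edgeR's test against 2-fold lost the interaction of ENSXETG00000030675 (adjusted p = 0.117), ENSXETG00000033930 (adjusted p = 0.139) and ENSXETG00000012337 (adjusted p = 0.0518), the difference without T3 of ENSXETG00000001229 (adjusted p = 0.0528) and that with T3 of ENSXETG00000010457 (adjusted p = 0.636) and ENSXETG00000018449 (adjusted p = 0.76). For these the cause was not tested. Without WT+T3 replicate 3 the interaction of ENSXETG00000015190 was 4.54, and without WT+T3 replicate 2 it was 1.44. For ENSXETG00000012337 edgeR gave 4.65 without WT+T3 replicate 2, with no WT count with T3 left. Without WT replicate 3 the interaction of ENSXETG00000012337 was 2.62 and the difference of ENSXETG00000034285 without T3, at 1.11, became called. With T3 the difference became called for ENSXETG00000015190 without WT+T3 replicate 3 (3.16) and for ENSXETG00000001229 without WT+T3 replicate 2 (1.44) or TRα (-/-)+T3 replicate 3 (1.4). The interaction of ENSXETG00000023230 became called without WT replicate 2 (1.04) or TRα (-/-)+T3 replicate 2 (1.03), as did the difference of ENSXETG00000004850 without T3 when TRα (-/-) replicate 3 was left out (-1.0). Without TRα (-/-)+T3 replicate 2 the interaction was 1.57 for ENSXETG00000001229 and 3.30 for ENSXETG00000010417.

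Correlations between libraries of the same replicate number across groups were low, from -0.052 to 0.084 over 18 pairs. However, 7 of 12 libraries were closest to a library of their own number, so these values do not settle whether the numbers pair the libraries. A fit with the replicate number as a block called 10 members higher and 26 lower without T3, 28 higher and 2 lower with T3 and 42 lowered less, the counts found without the block, and DESeq2 gave these counts too.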
